A study of Mus musculus with 5 samples.

Results

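The genes described here are *Mki67*, *Top2a*, and the 8 subunits of condensin (*Smc2*, *Smc4*, *Ncapd2*, *Ncapg*, *Ncaph*, *Ncapd3*, *Ncapg2*, and *Ncaph2*). They were chosen by name, as genes of mitotic chromosome structure, from the 20224 genes of the count table, and all 10 were present and passed the filter on low counts. The libraries were bulk RNA-seq of 100 sorted sympathetic neurons each, from the stellate ganglia and thoracic sympathetic chain of embryos at E14.5. Control neurons gave 2 libraries, replicates 5 and 6, and *Hif1aCKO* neurons 3, replicates 3, 4, and 5, with 8254211 to 9700887 counted reads in each. Values per library are given below in this order. Control embryos were *Hif1a loxP/+* and *Hif1aCKO* embryos *Hif1a loxP/loxP*. Both carried the *Isl1-Cre* knock-in, the *tdTomatoAi14* reporter, and the *Prph-eGFP* transgene, so controls were heterozygous for the floxed allele and not wild type. These are the reporter genotypes in the labels, whose design text also describes controls without Cre, which would lack the tdTomato used for sorting. The floxed line was on a mixed C57BL/6J and C57BL/6N background and *Isl1Cre/+* mice on FVB, and the pregnancies were not diabetic. Cre was expressed from the *Isl1* locus, and recombination is therefore expected in all cells with a history of *Isl1* expression, with cells collected only when positive for both eGFP and tdTomato.

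Condensin is a ring of SMC proteins that compacts chromatin loops into rod-shaped chromosomes when a cell divides. Vertebrate cells build 2 versions on the same *Smc2* and *Smc4* core, condensin I with *Ncapd2*, *Ncapg*, and *Ncaph*, and condensin II with *Ncapd3*, *Ncapg2*, and *Ncaph2*. Topoisomerase II alpha, encoded by *Top2a*, disentangles the DNA of sister chromatids, and Ki-67, encoded by *Mki67*, coats the surface of mitotic chromosomes and is the common marker of cycling cells. Sympathetic neuroblasts are unusual among neurons because they divide while they already express neuronal genes, and many leave the cell cycle around the stage sampled here. In bulk libraries, fewer cells of a type and less RNA per cell cannot be told apart, and this holds for a share of cycling cells too.

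Promoters are described first, because several of these genes are known targets of the cell cycle machinery that acts through the CHR element (TTTGAA or TTCGAA), the site of the MuvB complexes, and through CCAAT boxes, the site of NF-Y. RefSeq start sites on GRCm38.p6 were found for 9 of the 10 genes, and the 250 bases before the start nearest to the annotated gene start were searched on both strands. A CHR element occurred in 7 of the 9 windows, a CCAAT box in 5, and both in 5. Over all 32851 promoter windows of the same length, 17.1% held a CHR element, 33.85% a CCAAT box, and 6.02% both. An E2F site spelled TTTCCCGC, TTTCGCGC, TTTGCCGC, or TTTGGCGC was found in *Ncapd2* and *Ncapg2* and in 1.86% of all windows. These are matches of letters and not measured binding sites.

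The windows of *Mki67* (minus strand, chr7:135716380-135716629), *Top2a* (minus strand, chr11:99024190-99024439), *Smc2* (plus strand, chr4:52438971-52439220), and *Ncaph* (minus strand, chr2:127133955-127134204) are printed 5′ to 3′ up to the base before the start site, with matches in capitals (TTCAAA and ATTGG are TTTGAA and CCAAT on the other strand), to set promoters with many, few, and no matches side by side.
Mki67: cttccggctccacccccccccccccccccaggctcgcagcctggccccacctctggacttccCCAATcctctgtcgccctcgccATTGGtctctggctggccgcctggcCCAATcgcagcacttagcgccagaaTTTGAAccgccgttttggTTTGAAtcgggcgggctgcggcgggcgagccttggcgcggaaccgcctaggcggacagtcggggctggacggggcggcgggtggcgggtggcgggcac
Top2a: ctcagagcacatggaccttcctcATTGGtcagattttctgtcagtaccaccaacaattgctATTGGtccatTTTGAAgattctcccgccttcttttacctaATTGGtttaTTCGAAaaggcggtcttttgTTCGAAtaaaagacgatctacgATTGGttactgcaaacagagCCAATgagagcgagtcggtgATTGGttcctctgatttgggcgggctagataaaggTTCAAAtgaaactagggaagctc
Smc2: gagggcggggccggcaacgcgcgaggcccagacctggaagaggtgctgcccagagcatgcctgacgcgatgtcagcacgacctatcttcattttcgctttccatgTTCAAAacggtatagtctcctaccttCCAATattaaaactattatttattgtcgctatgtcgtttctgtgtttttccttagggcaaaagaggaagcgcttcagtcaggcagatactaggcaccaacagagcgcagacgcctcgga
Ncaph: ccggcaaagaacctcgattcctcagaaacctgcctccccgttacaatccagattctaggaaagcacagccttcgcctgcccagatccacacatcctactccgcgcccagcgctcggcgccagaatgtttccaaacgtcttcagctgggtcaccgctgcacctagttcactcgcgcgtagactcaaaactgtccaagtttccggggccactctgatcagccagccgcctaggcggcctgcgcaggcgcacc
The *Mki67* window held 2 CHR elements, 116 and 98 bases before the start, and 3 CCAAT boxes. That of *Top2a* held 4 CHR elements and 6 CCAAT boxes, the most among the 9 genes. In *Smc2* there was 1 of each, and the *Ncaph* window had neither.

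The deleted gene, *Hif1a*, had normalized counts of 2086 and 1584 in control and of 2747, 1757, and 2135 in *Hif1aCKO* libraries. Counts were summed over all exons and only exon 2 is floxed, so this value does not check the deletion. *Isl1*, whose locus drives Cre, had a log2 fold change of -0.67 (SE 0.10), and *Prph*, whose promoter drives eGFP, of 0.15 (SE 0.17). Of the markers of sympathetic neurons, all 15 had counts in every library, and their summed level was 12062 and 14146 CPM (counts scaled to the library size) in control and 10913 to 11004 in *Hif1aCKO* libraries. The Schwann cell precursor markers, of which 5 of 8 were matched, summed to 13.7 and 6.39 CPM in control libraries, to 185 in *Hif1aCKO* replicate 3, and to 11.9 and 5.97 in *Hif1aCKO* replicates 4 and 5. In *Hif1aCKO* replicate 3 these included 926 counts of *Fabp7* and 457 of *Ednrb*, with 8 of *Sox10*. Mesenchymal (5 of 8 matched) and endothelial (2 of 6 matched) markers stayed at or below 4.23 summed CPM, and the erythroid marker matched (1 of 7) at or below 3.65. Chromaffin markers summed to 1487 and 1672 CPM in control and 1608, 1889.7, and 2214 in *Hif1aCKO* libraries. Among them *Cartpt* had a log2 fold change of 1.04 (SE 0.20) and was called by DESeq2, whereas *Chgb* (-1.69, SE 0.66) and *Pnmt* (-1.91, SE 0.90), the enzyme that makes adrenaline, were lower in all *Hif1aCKO* libraries and not called, and their part in the values below was not tested. Those of sensory neurons, of which 4 of 6 were matched, summed to 60.2 to 108 CPM. Most of this came from *Prrxl1*, with 655 and 708 counts in control and 492, 891, and 563 in *Hif1aCKO* libraries. *Pou4f1* had at most 5 counts, *Runx3* at most 6, and *Ntrk2* at most 19. *Xist* was high only in control replicate 5 and *Hif1aCKO* replicate 3, so both genotypes held libraries of either kind. The labels give no sex.

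All 10 genes had a higher fitted level in *Hif1aCKO* than in control neurons, where 51.3% of the 15032 genes tested had a fold change above 0. Their median log2 fold change was 0.35, against 0.01 for all genes tested. The count was 8 of 10 without control replicate 6, where *Ncapd2* and *Ncaph2* turned, and 8 of 10 without *Hif1aCKO* replicate 4, where *Ncaph* and *Ncaph2* turned. None of the 10 was called by the quasi-likelihood test of edgeR (adjusted p under 0.05, log2 fold change beyond 0.3, mean normalized count of at least 50), which called 0 of 15032 genes (0%). An unadjusted p-value under 0.05 in the direction of *Hif1aCKO* was found for 4 of the 10 (*Mki67*, *Smc4*, *Ncapg*, and *Smc2*) and for 3.83% of all genes tested, and for 1153 genes over both directions. DESeq2 called *Mki67* and *Smc4* at the same thresholds, and 0.149% of the genes it fitted were called higher. In 6 of the 10 genes the lowest *Hif1aCKO* library was above the highest control library, which was the case for 12.9% of all genes tested. With 2 libraries against 3 the smallest exact permutation p-value of a single gene is 0.1. The direction of *Mki67* and of several partners named further on was known from these libraries before, and is not independent evidence.

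**Figure D1:**
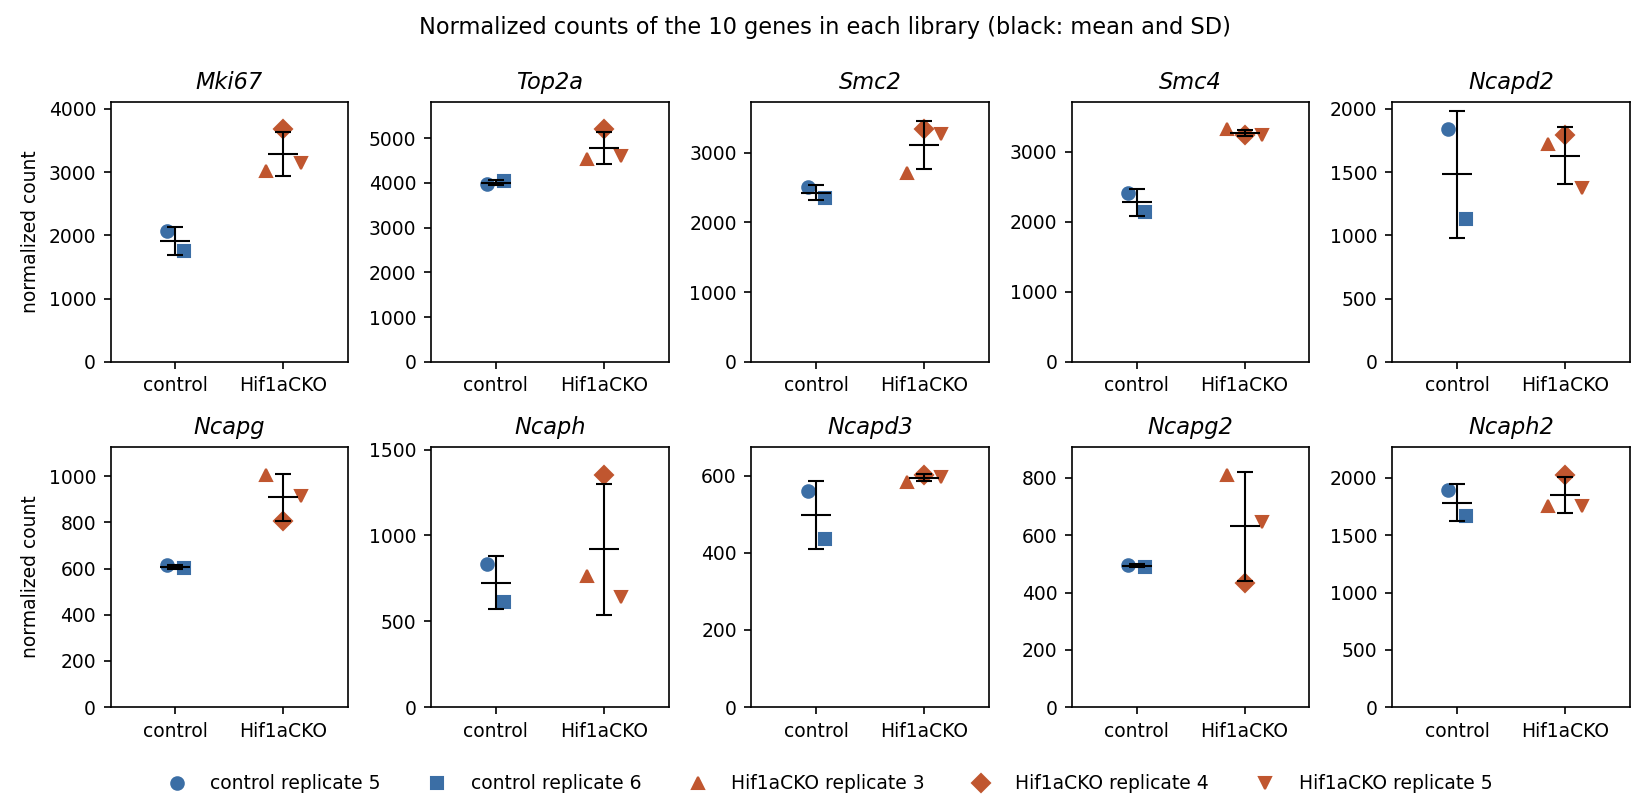
Normalized counts of each gene (vertical axes, from 0) in the 2 control and 3 Hif1aCKO libraries, 1 symbol per library, with black bars for the mean and SD of each group. The groups are separate for Mki67, Top2a, Smc2, Smc4, Ncapg, and Ncapd3 and overlap for Ncapd2, Ncaph, Ncapg2, and Ncaph2.

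*Mki67* (ENSMUSG00000031004, GRCm38 chromosome 7, 135689784 to 135716361, minus strand) had normalized counts of 2069 and 1757 in control libraries. In *Hif1aCKO* libraries it had 3014, 3672, and 3149.7. The lowest *Hif1aCKO* library thus stood above the highest control library by more than the spread within either group, with means of 1913 ± 221 (SD, n = 2) and 3279 ± 347 (SD, n = 3). The fold change was 1.71 (95% interval 1.35 to 2.18), or 0.78 on the log2 scale with a standard error (SE) of 0.15. This was the largest of the 10 fold changes, and its p-value ranked at 21 among the 15032 genes tested. It had an adjusted p of 0.567 with edgeR and of 0.00139 with DESeq2. Leaving out each library in turn kept the log2 fold change between 0.66 and 0.90. Between the libraries with high *Xist* it was 0.54, and between those with low *Xist* 0.95.

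*Top2a* (ENSMUSG00000020914, chromosome 11, 98992943 to 99024189, minus strand) had the highest counts of the 10 genes. Its normalized counts were 3977 and 4044 in control and 4543, 5196, and 4608 in *Hif1aCKO* libraries. The groups did not overlap, although the difference of the means (4010.4 ± 47.5, SD, n = 2, against 4782 ± 359, SD, n = 3) was small. The fold change was 1.19 with a 95% interval from 0.985 to 1.44, and the log2 fold change of 0.25 (SE 0.12) was not called by either tool (adjusted p = 0.684 with edgeR and 0.601 with DESeq2). Exons of the gene hold the small RNA *Gm23451* over 1.35% of their bases. Without any single library the log2 fold change stayed between 0.19 and 0.29. The related *Top2b*, which serves non-dividing cells too, had a log2 fold change of 0.12 (SE 0.14).

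*Mki67* and *Top2a* are both used as markers of cycling cells, but their ratio was not constant. Per kb of exon, the *Mki67* level was 0.466 and 0.389 of that of *Top2a* in control and 0.594, 0.633, and 0.612 in *Hif1aCKO* libraries. All *Hif1aCKO* libraries thus had a higher ratio than both control libraries, with a difference of 0.53 on the log2 scale. The ratio rests on both genes and was not tested.

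**Figure D2:**
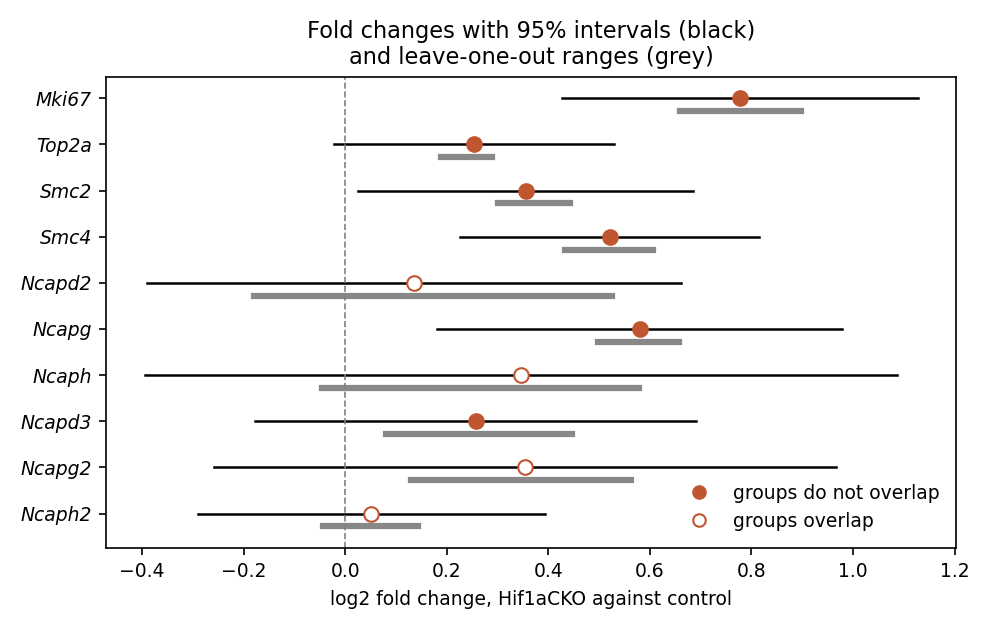
Log2 fold changes of the 10 genes in Hif1aCKO against control neurons (horizontal axis), with 95% intervals from edgeR as black lines, and the range over fits without each library as grey bars. The intervals of Mki67, Smc2, Smc4, and Ncapg lie above 0 and the other 6 include 0; filled points mark genes whose groups do not overlap.

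The SMC core of condensin was higher in all 3 *Hif1aCKO* libraries for both subunits. *Smc4* (ENSMUSG00000034349, chromosome 3, 69004738 to 69034623, plus strand) had normalized counts of 2411 and 2143 in control libraries. It had 3315, 3241, and 3243 in *Hif1aCKO* libraries, which are nearly the same value in all 3 libraries. The means were 2277 ± 189 (SD, n = 2) and 3267 ± 42.2 (SD, n = 3), a fold change of 1.43 (95% interval 1.17 to 1.76). With an adjusted p of 0.586 from edgeR and 0.0366 from DESeq2, DESeq2 called the gene and edgeR did not. The log2 fold change of 0.52 (SE 0.13) stayed between 0.43 and 0.61 whichever library was dropped.

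*Smc2* (ENSMUSG00000028312, chromosome 4, 52439243 to 52488260, plus strand), which pairs with *Smc4* in every condensin complex, had 2506 and 2350.3 normalized counts in control and 2715, 3332, and 3274 in *Hif1aCKO* libraries. *Hif1aCKO* replicate 3 was close to the controls and the other 2 were well above them. The log2 fold change was 0.36 (SE 0.14, 95% interval of the fold change 1.02 to 1.61), and the adjusted p 0.627 with edgeR and 0.412 with DESeq2. Within the libraries with high *Xist* the difference was 0.12, and within those with low *Xist* 0.49. The ratio of *Smc2* to *Smc4*, per kb of exon, was 0.988 and 1.04 in control and 0.779, 0.978, and 0.960 in *Hif1aCKO* libraries. The ratio was lower in each *Hif1aCKO* library, with *Hif1aCKO* replicate 3 farthest from the controls and the others next to them.

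Among the subunits of condensin I, the HEAT-repeat subunit *Ncapg* differed most. *Ncapg* (ENSMUSG00000015880, chromosome 5, 45669919 to 45700546, plus strand) had normalized counts of 615 and 601 in control and 1007, 806, and 913 in *Hif1aCKO* libraries. The means of 608 ± 9.55 (SD, n = 2) and 908 ± 101 (SD, n = 3) gave a log2 fold change of 0.58 (SE 0.17), or 1.49-fold (95% interval 1.13 to 1.97). Neither edgeR (adjusted p = 0.598) nor DESeq2 (0.207) called it. The gene shares 13.4% of its exonic bases with *Lcorl* on the opposite strand.

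The kleisin *Ncaph* (ENSMUSG00000034906, chromosome 2, 127103809 to 127133954, minus strand), which closes the ring, had 833 and 614 normalized counts in control libraries. It had 763, 1354, and 640.3 in *Hif1aCKO* libraries. *Hif1aCKO* replicate 4 alone was above the controls, and the other 2 libraries lay between them. The log2 fold change of 0.35 (SE 0.32, edgeR adjusted p = 0.840) became -0.045 without *Hif1aCKO* replicate 4 and 0.58 without control replicate 5. The other HEAT-repeat subunit, *Ncapd2* (ENSMUSG00000038252, chromosome 6, 125168007 to 125191701, minus strand), had 1837 and 1129.7 normalized counts in control libraries. In *Hif1aCKO* libraries it had 1726, 1790.4, and 1372, all between the control libraries. Its log2 fold change was 0.14 (SE 0.23), -0.18 without control replicate 6, and 0.53 without control replicate 5, so its sign depended on which control library was used. Its exons hold *Scarna10* and *Gm28967* on the same strand, over 3.78% and 3.75% of its exonic bases.

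In condensin II, which unlike condensin I is in the nucleus throughout interphase, none of the 3 subunits had an unadjusted p-value under 0.05. *Ncapd3* (ENSMUSG00000035024, chromosome 9, 27030175 to 27095315, plus strand) had normalized counts of 560.4 and 436 in control and 584, 603, and 597 in *Hif1aCKO* libraries. The groups were separate, but control replicate 5 lay close to the *Hif1aCKO* libraries. The log2 fold change was 0.26 (SE 0.19, edgeR adjusted p = 0.775). It was 0.081 without control replicate 6 and 0.45 without control replicate 5.

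*Ncapg2* (ENSMUSG00000042029, chromosome 12, 116405402 to 116463731, plus strand) had 497 and 489.7 normalized counts in control and 812, 433, and 647 in *Hif1aCKO* libraries. The *Hif1aCKO* libraries lay on both sides of the controls, with *Hif1aCKO* replicate 4 the lowest of all. The log2 fold change was 0.35 (SE 0.27, edgeR adjusted p = 0.782), 0.13 without *Hif1aCKO* replicate 3, and 0.56 without *Hif1aCKO* replicate 4. *Ncaph2* (ENSMUSG00000008690, chromosome 15, 89355719 to 89372826, plus strand), the kleisin of condensin II, had 1898 and 1670.5 normalized counts in control and 1758, 2029, and 1759 in *Hif1aCKO* libraries. Its log2 fold change of 0.05 (SE 0.15) was the smallest of the 10, and its 95% interval allowed a fold change from 0.818 to 1.31. It was -0.043 without control replicate 6, -0.02 without *Hif1aCKO* replicate 4, and 0.14 without control replicate 5. It shares 19.7% of its exonic bases with *Sco2* and 12.7% with *Tymp*, both on the opposite strand, and reads there cannot be assigned to 1 gene without strand.

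Levels can be compared between genes only per length, here as counts per kb of exon scaled to the same total in each library (TPM). The length is the union of the exons of all transcripts of a gene, and the orders between genes depend on it. It includes the exonic bases that *Ncapg* and *Ncaph2* share with genes on the opposite strand. What these shared bases do to the levels and ratios of both genes was not tested. In control neurons *Top2a*, *Smc2*, *Smc4*, and *Ncaph2* were at 155 ± 1.69, 154 ± 7.14, 152 ± 12.8, and 148 ± 13.5 TPM (SD, n = 2), and neighbours in this order overlapped. Below them, *Ncapd2* was at 82.4 ± 27.9, *Mki67* at 66.2 ± 7.69, and *Ncaph* at 58.5 ± 12.6 TPM, again with overlapping neighbours. *Ncapg* (29.9 ± 0.498), *Ncapd3* (22.0 ± 3.90), and *Ncapg2* (17.3 ± 0.192) were lowest, and these 3 were in the same order in both control libraries. In *Hif1aCKO* neurons *Smc4* had the highest mean with 219 ± 4.98 TPM (SD, n = 3), followed by *Smc2* with 198 ± 21.2 and *Top2a* with 186 ± 15.6. Neighbours among these overlapped. *Top2a* has 9013 bases by the union of exons but 5221 by longest transcript, against 5210 and 4316 for *Smc4*. By longest transcript *Top2a* would come first in both groups. *Mki67*, at 114 ± 13.0 TPM, stood above *Ncapd2* (91.1 ± 13.8) in all 3 libraries, whereas in both control libraries it stood below. This crossing rests on the length used, which is 10061 bases for *Mki67* and 6267 for *Ncapd2*. By longest transcript (10061 and 4629 bases) *Mki67* stood above *Ncapd2* in *Hif1aCKO* replicate 5 and below it in *Hif1aCKO* replicates 3 and 4.

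**Figure D3:**
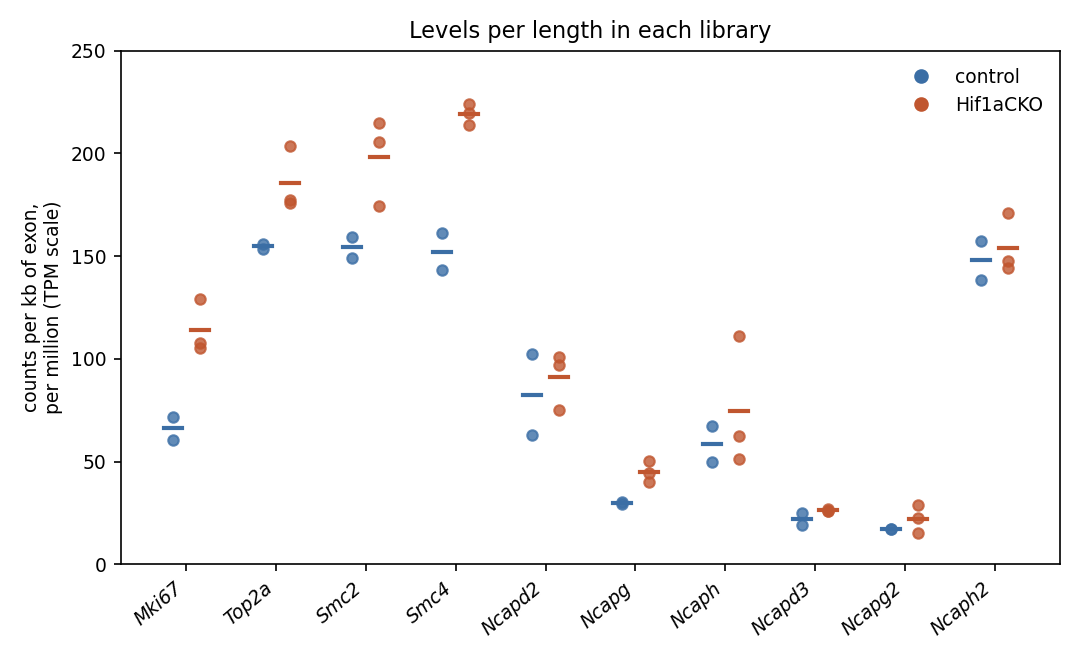
Levels of the 10 genes per length (vertical axis: TPM) in control (blue) and Hif1aCKO (orange) libraries, with a line at each group mean. The SMC core, Top2a, and Ncaph2 are at 138 to 224 TPM, and Ncapg, Ncapd3, and Ncapg2 at 15.4 to 50.2 TPM, in every library.

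Paired subunits of the 2 complexes were compared within each library. The 3 subunits of condensin I summed to 1.001 and 0.812 of those of condensin II, per kb of exon, in control libraries. In *Hif1aCKO* libraries the ratio was 1.04, 1.184, and 0.887. The groups overlapped, with means of 0.906 ± 0.134 (SD, n = 2) and 1.04 ± 0.148 (SD, n = 3), so no difference in the balance of the complexes stood out from the spread. The subunits did not share 1 balance. *Ncapd2* was at 2.89 to 4.13 times the level of *Ncapd3*, and *Ncapg* at 1.73 to 2.62 times that of *Ncapg2*. *Ncaph* was at 0.355 to 0.650 of the level of *Ncaph2*. The ratio of *Ncapg* to *Ncapg2* was 1.74 and 1.73 in the control libraries and 1.74, 2.62, and 1.98 in *Hif1aCKO* replicates 3, 4, and 5, so that *Hif1aCKO* replicate 3 matched the controls although both of its genes were above them.

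**Figure D4:**
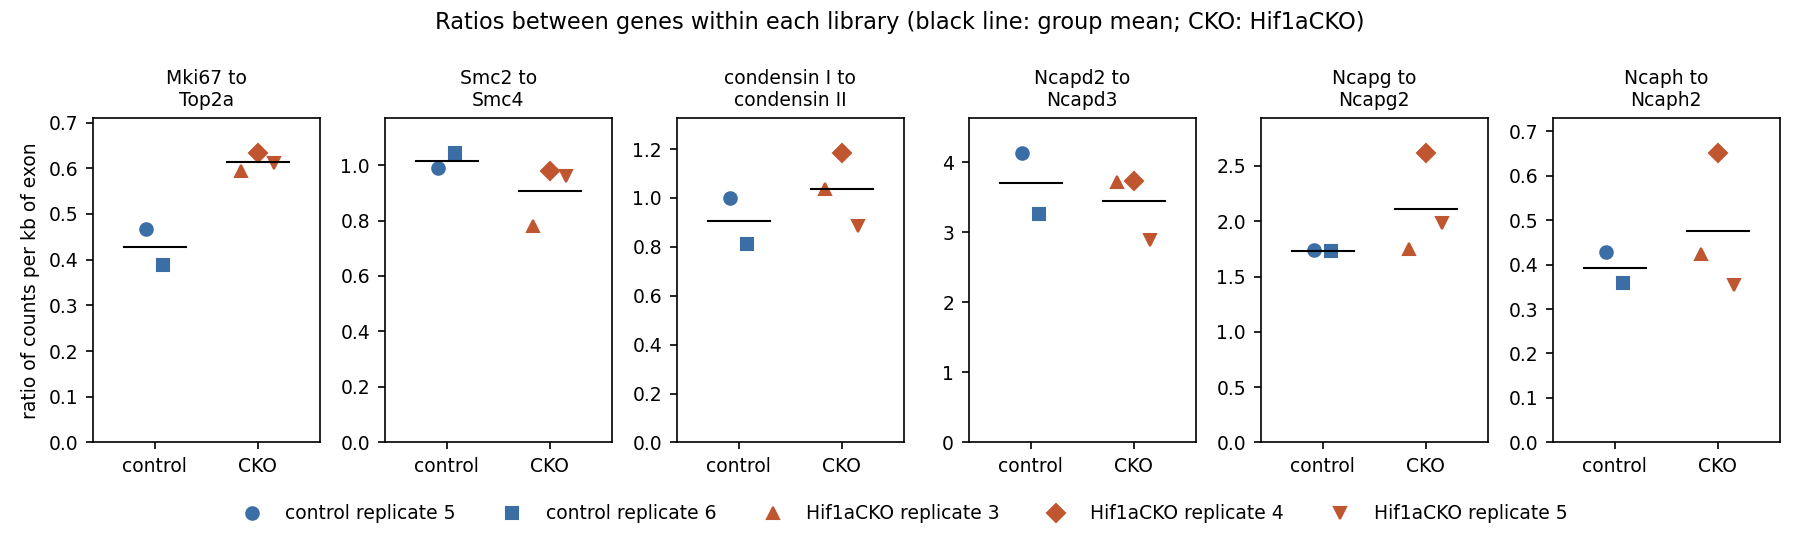
Ratios between genes within each library (vertical axes, from 0: ratio of counts per kb of exon), 1 symbol per library and a black line at each group mean. The Mki67 to Top2a ratio separates the groups, at 0.389 and 0.466 in control and 0.594 to 0.633 in Hif1aCKO libraries, and the condensin I to condensin II ratio does not.

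The spread between libraries was wider for some subunits than counting error gives. Raw counts of the 10 genes ran from 434 to 5203 per library, so that counting error alone is 1.39% to 4.80% of a value. The SD was 1.29% of the mean for *Smc4* and 41.5% for *Ncaph* in *Hif1aCKO* neurons, and 1.02% for *Ncapg2* and 33.7% for *Ncapd2* in control neurons. The biological coefficient of variation fitted by edgeR was between 0.133 (*Top2a*) and 0.257 (*Ncaph*), against 0.385 in common over all genes. Relative to the mean of the 5 libraries, the median of the 10 genes was -0.16 and -0.35 on the log2 scale in control and 0.12, 0.21, and 0.16 in *Hif1aCKO* libraries. *Hif1aCKO* replicate 4 was the highest library for *Mki67*, *Top2a*, *Smc2*, *Ncaph*, *Ncapd3*, and *Ncaph2* and the lowest for *Ncapg2*. Without *Hif1aCKO* replicate 3, the library with Schwann cell precursor markers, all 10 fold changes were above 0 and their median was 0.37, and the part of these cells in the single values was not tested.

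By complex, the median log2 fold change was 0.44 for the SMC core, 0.35 for condensin I, and 0.26 for condensin II. These values do not order the complexes, because without *Hif1aCKO* replicate 4 condensin I was at 0.062 and condensin II at 0.25. Condensin I was also at 0.14 without control replicate 6, 0.55 without *Hif1aCKO* replicate 5, and 0.58 without control replicate 5, and condensin II at 0.081 without control replicate 6 and 0.13 without *Hif1aCKO* replicate 3. Other genes that act on mitotic chromosomes were read from lists. Of 13 partners of chromosome condensation, all 13 had a fold change above 0, with a median log2 fold change of 0.42. Among them 8 had all *Hif1aCKO* libraries above both control libraries, against 12.9% of all genes tested. An unadjusted p-value under 0.05 was found for 7, against 3.83% of all genes tested with such a value in this direction. By edgeR 0 were called, against 0% of all genes. DESeq2 called 3 (*Plk1*, *Incenp*, and *Ccnb1*), against 0.149% of the genes it fitted called higher. *Plk1*, a kinase that phosphorylates condensin II at mitotic entry, had 751 and 834 normalized counts in control and 1534, 1619.7, and 1389 in *Hif1aCKO* libraries, a log2 fold change of 0.93 (SE 0.16). In the paper's qRT-PCR, made on dissected sympathetic chains and not on sorted neurons, *Hif1a* deletion left *Plk1* unchanged, whereas *Mki67* was increased. *Incenp*, the scaffold of the chromosomal passenger complex, had a log2 fold change of 0.86 (SE 0.20), whereas the kinase of that complex, *Aurkb*, had 0.32 (SE 0.22) with overlapping groups. *Kif4*, the chromokinesin that works with condensin on the chromosome axis, had 0.17 (SE 0.18), and *Mcph1*, which restrains condensin II before mitosis, 0.10 (SE 0.38). *Cdca2*, which recruits a phosphatase to chromosomes and has the same phosphatase-binding motif as Ki-67, had 0.19 (SE 0.20).

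The other SMC complexes stood closer to the median of all genes. Cohesin, which holds sister chromatids together and folds interphase chromatin, had 10 of 16 genes above 0 and a median log2 fold change of 0.11, and none of them had an unadjusted p-value under 0.05. Its core subunits were at 0.15 for *Smc1a*, -0.01 for *Smc3*, 0.29 for *Rad21*, -0.22 for *Stag1*, and -0.12 for *Stag2*. The regulators that act in dividing cells were at 0.32 for *Cdca5*, 0.47 for *Sgo2a*, 0.27 for *Sgo1*, 0.15 for *Esco2*, and 0.48 for *Espl1*. The Smc5/6 complex, which works in DNA repair, had 6 of 6 genes above 0 with a median of 0.13, and again none had an unadjusted p-value under 0.05. The other topoisomerases had a median of 0.08, which was -0.13 without *Hif1aCKO* replicate 3 and 0.23 without *Hif1aCKO* replicate 4, and *Top1*, which relaxes supercoils in transcription and replication, was the only 1 of 5 with an unadjusted p-value under 0.05, at 0.32 (SE 0.13). The difference between condensin and these lists was not tested.

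Genes of S phase replication had 17 of 20 fold changes above 0 and a median of 0.17, with 3 (*Tyms*, *Cdc6*, and *Rfc4*) at an unadjusted p-value under 0.05. *Pcna*, the sliding clamp, and *Mcm2*, of the replicative helicase, were at -0.02 and -0.11 with overlapping groups. Chromatin proteins such as *Hmgb2* (0.29) had 8 of 9 above 0 and a median of 0.20. Proteins of the chromosome surface and the nucleolus, where Ki-67 resides in interphase, had 4 of 9 above 0 and a median of -0.04, which was above 0 without any 1 of control replicates 5 and 6 and *Hif1aCKO* replicates 3 and 4 (0.049, 0.047, 0.015, and 0.11) and -0.11 without *Hif1aCKO* replicate 5, and *Nifk*, which binds the FHA domain of Ki-67, was at -0.04 (SE 0.21). The 15 sympathetic neuron genes had 6 above and 9 below 0 and a median of -0.27, with *Tubb3* at -0.39 (SE 0.09) and *Th* at -1.37 (SE 0.35), each lower in all *Hif1aCKO* libraries. Members of the same list also stood higher, with *Hand2* at 0.59 (SE 0.18), above both controls in all *Hif1aCKO* libraries, and *Ret* at 1.10 (SE 0.46) with overlapping groups. At an unadjusted p-value under 0.05 the list had 6 lower and 2 higher members. Among all 15032 genes tested, 578 were lower and 575 higher at this threshold. None of these genes was called by edgeR, and DESeq2 called *Isl1*.

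**Figure D5:**
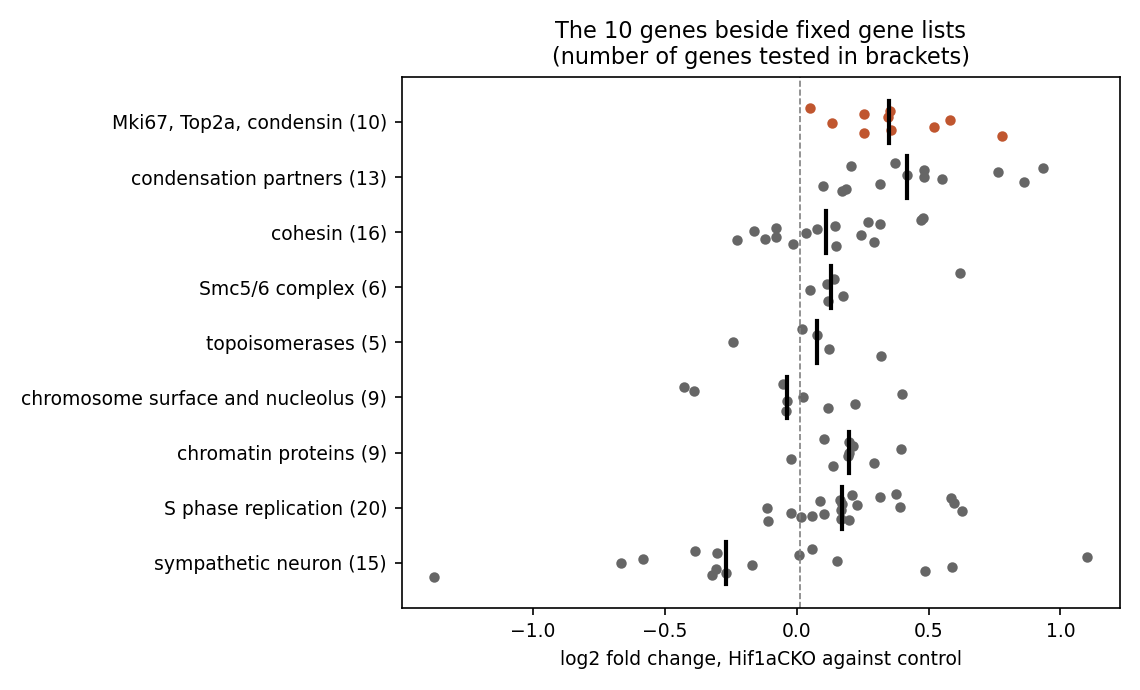
Log2 fold changes in Hif1aCKO against control neurons (horizontal axis) of the 10 genes (orange) and of genes in 8 other lists (grey), 1 point per gene, with a black line at each list's median and a dashed line at the median of all genes tested. The medians are 0.35 for the 10 genes and 0.42 for condensation partners, and from -0.27 to 0.20 for the other 7 lists.

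The genes whose profile over the 5 libraries was closest to that of *Mki67*, among 10842 genes with a mean normalized count of at least 50, were *Pole*, *Cald1*, *2610316D01Rik*, *Slc30a5*, and *Esrra*. Their root-mean-square difference from it, in log2 CPM centred on the mean of the libraries, was 0.026 to 0.064. *Pole*, a subunit of DNA polymerase epsilon, had mean normalized counts of 265 in control and 456 in *Hif1aCKO* neurons, which is 0.78 (SE 0.21) on the log2 scale. The profiles closest to that of *Top2a* were those of *Bcat2*, *Tln2*, *Ambra1*, *Wsb1*, and *Supv3l1*, with differences of 0.027 to 0.040. None of the 10 genes or of the condensation partners was among these, and a likeness over 5 libraries of 2 groups is a description only.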

How the data were processed

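The authors removed adaptors, ribosomal RNA, and vector sequence, mapped to GRCm38 with STAR (version 2.7.0c), and counted reads per gene with Rsubread at default parameters. Multi-mapping reads were not counted, and no source names a strand setting. The deposited values are these raw counts for 20224 genes in 5 libraries, used as they are. Names, positions, and exonic lengths were taken from GENCODE release M21 (GRCm38), where 20195 of the identifiers were found, although the paper gives release M8. Promoters came from RefSeq on GRCm38.p6.

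Genotypes, read from the sample titles, were compared over the whole table in R (version 4.3.3) using edgeR (version 4.0.16) with filterByExpr, TMM normalization (factors 0.974 to 1.03), the quasi-likelihood test, and Benjamini-Hochberg adjustment over 15032 genes. Normalized counts are counts divided by the effective library size and scaled to its mean. Intervals are 95% t intervals of that fit. Thresholds follow the study. Its tool, DESeq2 (version 1.42.0), was an alternative, as were the likelihood ratio test, limma-voom (limma version 3.58.1), 2 other normalizations, 2 other filters on low counts, other thresholds, a term for *Xist*, other gene lengths for the ratio, and leaving out each library. The fits were tested on simulated counts. Of 200 genes changed 2-fold, the quasi-likelihood test recovered 44 with 4 false calls, and DESeq2 85 with 19 false calls. Fitted fold changes of the 10 genes were 1.04 to 1.71, and recovery at changes of that size was not simulated. A check for a library deposited under 2 names found none (lowest chi-square per degree of freedom of a pair 14.2, against counting error only, and amplified reads are not independent molecules). The members and lists were chosen with earlier results of these data known. Genes named are the 10 members, *Hif1a* and the loci used for sorting, list members, and the 5 profiles nearest to *Mki67* and to *Top2a*. The labels give no shared litter or batch, and p-values measure the spread between these libraries.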

Additional observations from a re-analysis of the deposited data

How the results depend on the processing

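At the same thresholds DESeq2 called 60 genes in all and the likelihood ratio test 40, against 0 with the quasi-likelihood test, which called 0 to 4 genes when each library was left out (4 without control replicate 5). Limma-voom called 0. *Mki67* was called by DESeq2 (log2 fold change 0.78, adjusted p = 0.00139) and by the likelihood ratio test (0.78, adjusted p = 0.0311), and *Smc4* by DESeq2 (0.52, adjusted p = 0.0366). The sign turned for *Ncapd2* without control replicate 6 (-0.18), for *Ncaph* without *Hif1aCKO* replicate 4 (-0.045), and for *Ncaph2* without either (-0.043 and -0.02). Over the fits that left out each library, the log2 fold change spanned -0.18 to 0.53 for *Ncapd2*, -0.045 to 0.58 for *Ncaph*, and -0.043 to 0.14 for *Ncaph2*. Medians spanned 0.27 to 0.49 for the 10 genes, 0.062 to 0.58 for condensin I, 0.081 to 0.36 for condensin II, 0.016 to 0.18 for cohesin, 0.31 to 0.59 for condensation partners, 0.095 to 0.30 for chromatin proteins, -0.13 to 0.23 for topoisomerases, -0.11 to 0.11 for chromosome surface and nucleolus, -0.37 to -0.12 for sympathetic neuron genes, and -1.52 to 1.73 for the few endothelial counts. Cohesin had a median of 0.14 with upper-quartile normalization. The other 123 of the member fold changes computed under alternatives kept their sign and were not called. Some of them crossed the log2 fold change threshold of 0.3. For *Ncapg2* the value was 0.35 with all libraries and 0.13 without *Hif1aCKO* replicate 3. The causes were not tested. No paired analysis was possible because no label ties a control library to a *Hif1aCKO* library. Counting error would be at most 4.80% of a value at this depth if reads were independent molecules, which amplified reads are not.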
